A study of Mus musculus with 16 samples.

Results

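The collagen genes are described here across epididymal white fat of diet-induced obese mice, with or without a functional Fgf21 gene and with or without rosiglitazone. A gene was taken when its symbol in the array's annotation was Col, a number, the letter a and a number, which gave 37 genes with 59 probes, out of 16593 genes and 25697 probes on the array. Each gene stood in by its probe of highest mean signal over all 16 arrays, so the choice used overall brightness and no difference between groups. Probes whose signal exceeded the negative controls (a detection p no higher than 0.05) on 4 or more arrays were tested. By that rule 21 collagen genes were tested, of 9542 genes in all, 14 of them detected on every array.

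The wild-type (WT) and Fgf21-KO mice were 4 to 5 months old and ate a high fat diet for 10 weeks. Sample titles give a mixed c57b6/sv129 background for WT and name none for Fgf21-KO. Fgf21-KO mice lack Fgf21, a hormone made by liver and fat. Animals of each genotype were given vehicle or rosiglitazone, a thiazolidinedione ligand of the nuclear receptor PPARγ, at 10 mg/kg over the last 2 weeks of the diet. Each of the 4 groups, named by genotype and treatment, held 2 pools of 2 mice, and RNA of each pool was hybridised to 2 Illumina MouseRef-8 arrays. The pool was the replicate (n = 2 per group), the repeat arrays were averaged, and no lean or chow-fed group was part of the comparisons.

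Collagens are secreted proteins whose chains wind around each other into a stiff helix. Fibrillar types I, III and V assemble into the ropes that carry tension between fat lobules and around vessels. Type IV chains form the sheet-like network of basement membranes, which surround every adipocyte and capillary. Type VI forms beaded filaments next to the basement membrane and is abundant in fat, where it limits how far adipocytes expand. The multiplexins, types XV and XVIII, carry sugar side chains and sit at the outer face of basement membranes, and the tail of type XVIII is released as endostatin. Fat grows by enlarging adipocytes inside this matrix, so matrix genes are a common readout of obese fat.

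Among the 11 fibrillar genes on the array, 6 were tested (Col1a1, Col1a2, Col2a1, Col3a1, Col5a1 and Col5a3). All 6 type IV genes were tested, along with 2 of 3 type VI genes (Col6a1 and Col6a2), both multiplexins (Col15a1 and Col18a1), 2 of 6 fibril-associated genes (Col14a1 and Col16a1) and 3 of 4 transmembrane genes (Col17a1, Col23a1 and Col25a1). None of the 3 network and anchoring genes or the 2 remaining genes was tested. The 16 untested genes were Col5a2, Col6a6, Col7a1, Col8a2, Col9a1, Col9a2, Col9a3, Col10a1, Col11a1, Col11a2, Col13a1, Col19a1, Col24a1, Col26a1, Col27a1 and Col28a1, and 7 of them were detected on no array. For a further 7 collagen genes of the reference annotation, Col6a3, Col6a4, Col6a5, Col8a1, Col12a1, Col20a1 and Col22a1, no probe was analysed here. Just inside the detection rule lay Col17a1 and Col25a1, each detected on 4 arrays, and just outside it lay Col5a2 and Col9a1, each detected on 3.

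Upstream sequence is shown for the type VI pair which lay higher in the knockout, and for Col16a1, which lay lower. RefSeq sequence of the mouse build GRCm38.p6 held an upstream entry for 30 of the 37 genes and for 17 of the 21 tested genes. The 250 bases before the outermost start in RefSeq's upstream table are printed 5′ to 3′ on the gene's own strand, and motif distances count from that start. Col6a1 lies on the minus strand and its window is chr10:76726045-76726294. For Col6a2, on the same strand, the window is chr10:76623631-76623880, and for Col16a1, on the plus strand, it is chr4:130047590-130047839. The annotated body of Col16a1 begins at position 130047817, ahead of the start in the upstream table, so the last 23 bases of its window lie inside the gene. Capitals mark the motifs found on either strand.
Col6a1: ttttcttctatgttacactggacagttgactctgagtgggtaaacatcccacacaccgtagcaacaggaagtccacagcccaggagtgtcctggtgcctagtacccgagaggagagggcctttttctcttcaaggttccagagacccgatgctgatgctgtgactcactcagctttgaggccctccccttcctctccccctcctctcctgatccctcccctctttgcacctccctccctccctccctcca
Col6a2: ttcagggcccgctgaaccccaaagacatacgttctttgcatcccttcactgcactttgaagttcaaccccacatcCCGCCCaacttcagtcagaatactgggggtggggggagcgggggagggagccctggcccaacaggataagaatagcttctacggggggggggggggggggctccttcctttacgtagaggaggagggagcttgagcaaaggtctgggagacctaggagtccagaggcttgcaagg
Col16a1: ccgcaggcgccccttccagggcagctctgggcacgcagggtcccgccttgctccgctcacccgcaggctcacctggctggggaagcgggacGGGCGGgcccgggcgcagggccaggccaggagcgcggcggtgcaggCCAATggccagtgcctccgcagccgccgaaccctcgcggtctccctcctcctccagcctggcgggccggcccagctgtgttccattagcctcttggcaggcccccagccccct

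The motifs searched on both strands were the TATA box TATAAA, the CCAAT box CCAAT, the GC box GGGCGG and the nuclear receptor half-site AGGTCA. No window held TATAAA, which 12.4% of all 32851 windows of 250 bases hold. The Col6a2 window held 1 GC box on the opposite strand, from 175 to 170 bases before the start, and the Col16a1 window held 1 on its own strand, from 159 to 154 bases before it. A GC box occurs in 32.7% of all windows. The Col16a1 window also held 1 CCAAT box, from 113 to 109 bases before the start, against a share of 33.8% of all windows. The half-site was in none of these windows and in 14% of all of them. The motifs did not overlap each other, and the Col6a1 window held none of them in these letters.

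Several members neighbour each other in the same build. Col6a2 and Col6a1 lie 85.2 kb apart on chromosome 10, and Col18a1 follows Col6a1 after 326.1 kb. The type IV genes form pairs: Col4a1 and Col4a2 overlap by 85 bases on chromosome 8, Col4a4 and Col4a3 overlap by 114 bases on chromosome 1, and Col4a6 and Col4a5 are 1.3 kb apart on the X chromosome.

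The deleted gene was read first. Fgf21 had pool values of 7.53 and 7.79 in WT vehicle and 8.37 and 7.17 in WT rosiglitazone, on the scale of log2 normalized signal used throughout. In the knockout it was 5.17 and 5.58 under vehicle and 5.22 and 5.54 under rosiglitazone. Its probe was detected on all 8 WT arrays and on 1 array of each knockout group, and the genotypes did not overlap (averaged difference -2.34, SE 0.27, limma adjusted p = 0.0684).

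Array medians of the deposited signal ran from 144.9 to 192.3, and 47.6% to 51.0% of probes were detected per array. Bead numbers per probe averaged 36.0 to 38.9 on WT arrays and 39.4 to 40.7 on Fgf21-KO arrays, so an effect of chip or run going along with the genotype cannot be told apart from it in any genotype comparison below. All 6 adipocyte markers on the array (such as Adipoq and Plin1) were tested, and their summed normalized signal was 129100 to 145900 in every pool. In WT rosiglitazone pool 1 the library stood apart. The summed signal of 6 tested smooth muscle markers was 87430 there against 14210 to 24400 in the other 7 pools, and that of 5 epithelial markers was 2202 against 394.9 to 1396. The smooth muscle genes Actg2 and Myh11 read 13.97 and 12.50 in it. Fgf21-KO vehicle pool 2 had a summed signal of 15660 for 4 liver markers against 665.3 to 3685 elsewhere, with Alb and Fgb detected on no array. Mesothelial markers were lowest in Fgf21-KO rosiglitazone pool 2, at 2326 against 4308 to 6756. Single-gene differences printed below for the brightest probe that moved by over 1.5 times or turned sign without WT rosiglitazone pool 1 are also given without it.

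**Figure D1:**
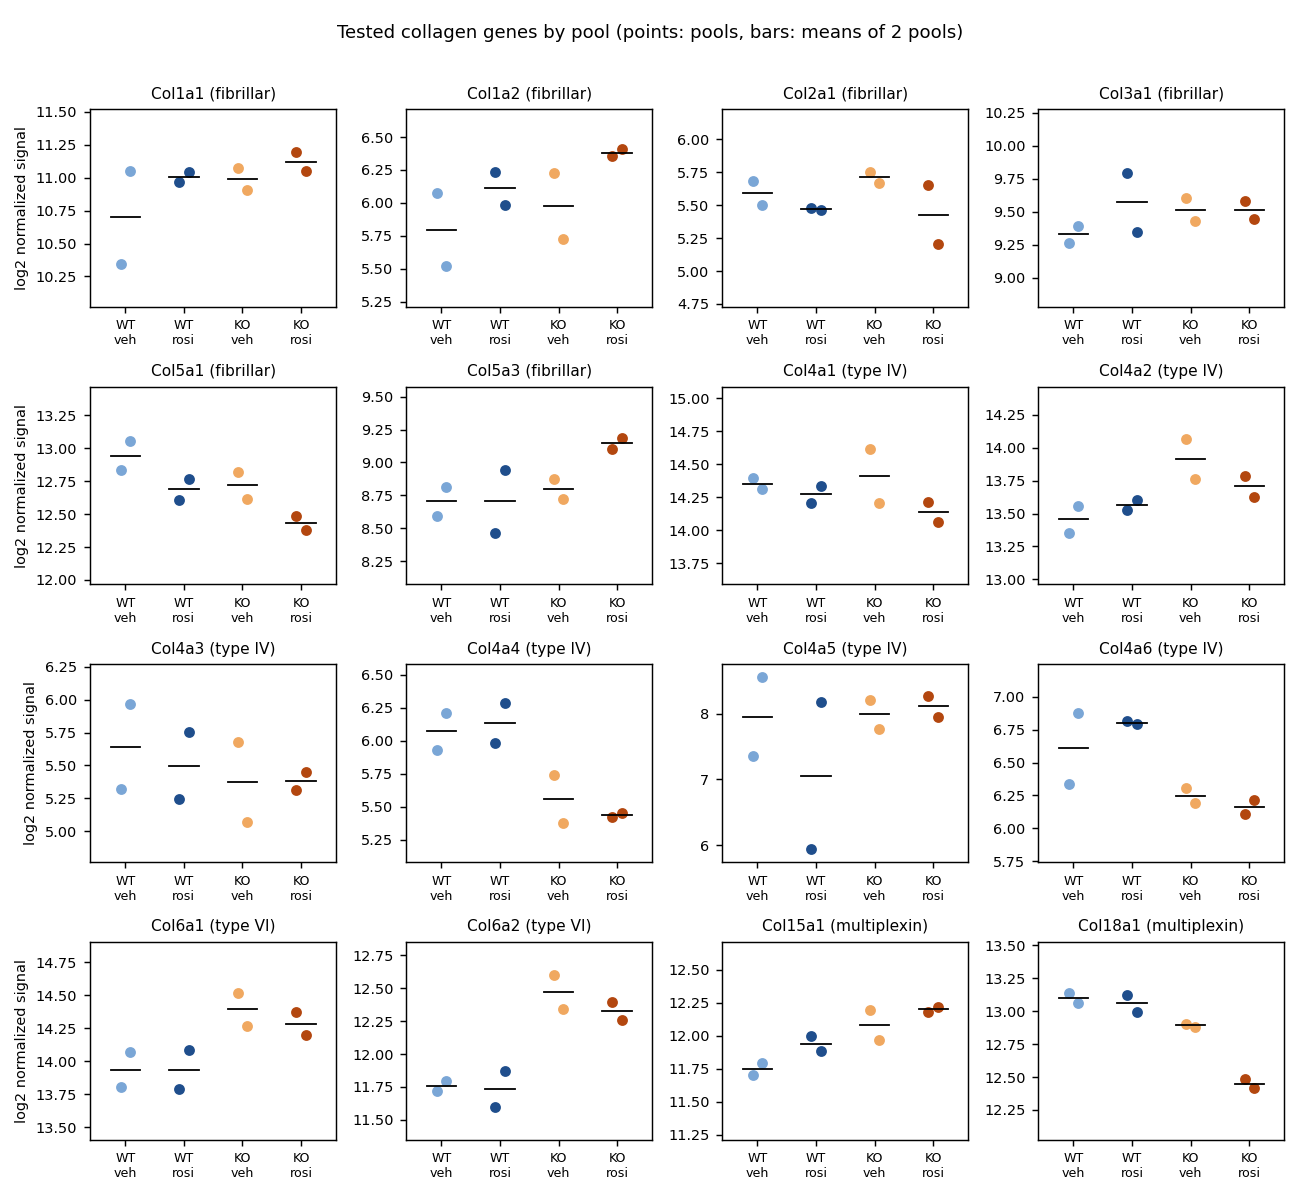
Log2 normalized signal (vertical axis) of the 16 tested fibrillar, type IV, type VI and multiplexin genes in the 4 groups (horizontal axis; veh, vehicle; rosi, rosiglitazone; KO, Fgf21-KO). Points are pools and bars are means of 2 pools, each panel has its own range, and the Col6a1 and Col6a2 panels show all 4 knockout points above all 4 WT points.

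No collagen gene passed the threshold (limma, Benjamini-Hochberg adjusted p of 0.05 or less over 13759 probes) in any of the 7 comparisons, so all values that follow are differences that did not pass it. At an unadjusted p under 0.05 there were 9 of the 21 genes for genotype averaged over treatments, against 14.5% of all genes, and 2 for rosiglitazone averaged over genotypes, against 8.58%. Those 9 were Col6a1, Col6a2, Col15a1 and Col4a2 with higher and Col16a1, Col18a1, Col23a1, Col4a4 and Col4a6 with lower values in the knockout. By their brightest probes the 6 fibrillar genes lay between -0.24 and 0.27, and a second Col3a1 probe gave 0.77 (SE 0.36). Col4a4 passed the detection rule only through WT, so it had to differ and its place in this and later genotype counts is a description. In bulk tissue, fewer cells of a type and less RNA per cell cannot be told apart.

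Type VI collagen gave the widest genotype separation of the 3 main classes. Col6a2, one of the chains that build the type VI filament, read 11.72 and 11.80 in WT vehicle, 11.60 and 11.87 in WT rosiglitazone, 12.60 and 12.34 in Fgf21-KO vehicle and 12.39 and 12.26 in Fgf21-KO rosiglitazone. The lowest knockout pool lay above the highest WT pool. Its difference was 0.71 under vehicle (SE 0.16, adjusted p = 0.649) and 0.59 under rosiglitazone (SE 0.16, adjusted p = 0.222). Averaged over treatments it was 0.65, a ratio of 1.57, with a 95% interval of 0.38 to 0.92 and an adjusted p of 0.116, the lowest of all collagens in that comparison. Without WT rosiglitazone pool 1 the averaged difference was 0.58.

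Col6a1, the partner chain, read 13.80 and 14.07 in WT vehicle, 13.79 and 14.08 in WT rosiglitazone, 14.52 and 14.27 in Fgf21-KO vehicle, and 14.38 and 14.20 in Fgf21-KO rosiglitazone. Again all 4 knockout pools lay above all 4 WT pools. The averaged difference was 0.40 (SE 0.13, adjusted p = 0.258), with 0.46 under vehicle and 0.35 under rosiglitazone, the latter 0.20 without WT rosiglitazone pool 1. Rosiglitazone left both genes near their vehicle values: the difference was -0.03 for Col6a2 and -0.00 for Col6a1 in WT, with intervals of -0.41 to 0.36 and -0.43 to 0.43, and 0.11 and 0.15 without that pool. In the knockout it was -0.14 and -0.11. Of the third type VI gene on the array, Col6a6, a chain of restricted expression, no signal was detected on any array.

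Endothelial markers lay on the same side as type VI collagen between genotypes. Of 6 tested endothelial markers, 5 had a higher mean in the knockout, 3 of them at an unadjusted p under 0.05 (Cdh5, Tek and Tie1), against 14.5% of all genes. Cdh5, the cadherin of endothelial junctions, differed by 0.66 (SE 0.19, adjusted p = 0.222). The list's mean log2 value, centred on all pools, was -0.58 to 0.02 in WT and 0.14 to 0.32 in the knockout, and its summed signal was 11500 to 13880 and 13440 to 14990, with Kdr detected on only 2 arrays. Fibroblast markers (8 of 8 tested) overlapped between genotypes, with summed signals of 34430 to 39680 in WT and 29580 to 35670 in the knockout. Mesothelial markers lay on the same side as the lower collagens, and so did epithelial and smooth muscle markers under rosiglitazone and averaged over treatments. Of 5 tested epithelial markers, 4 had a lower mean in the knockout averaged over treatments, 2 of them at an unadjusted p under 0.05 (Krt8 and Krt18), and under rosiglitazone 5 were lower, 4 of them at such a p (median -1.65, against 15.8% of all genes). Their summed signal was 632.7 to 2202 in WT and 394.9 to 619.8 in the knockout. The 2202 was WT rosiglitazone pool 1, and the other WT rosiglitazone pool had 1396. All 6 tested smooth muscle markers had a lower mean in the knockout under rosiglitazone (median -1.43) and averaged over treatments (median -0.63), 0 of them at such a p. Under vehicle 4 were higher and 2 lower. The smooth muscle signal was also highest in WT rosiglitazone pool 1. Of 7 tested mesothelial markers, 6 had a lower mean in the knockout averaged over treatments, 3 of them at such a p (median -0.42), and their summed signal was 4308 to 6756 in WT and 2326 to 6384 in the knockout. The part of these lists in the collagen values was not tested.

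**Figure D2:**
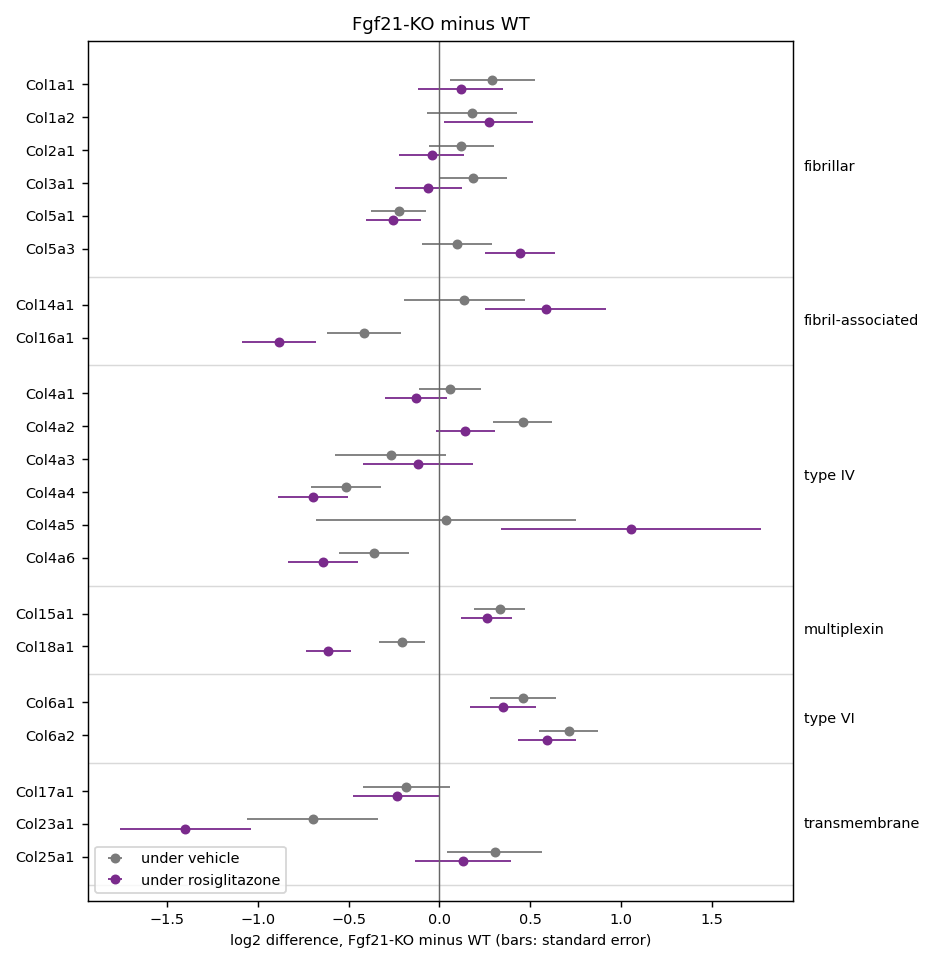
Log2 difference, Fgf21-KO minus WT (horizontal axis), for the 21 tested collagen genes by class, under vehicle (grey) and rosiglitazone (purple), with the standard error as bars. Both type VI genes lie to the right of 0 under both treatments, and Col16a1, Col18a1, Col23a1, Col4a4 and Col4a6 to the left.

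By their brightest probes the fibrillar genes had averaged genotype differences of -0.24 to 0.27. None had an unadjusted limma p under 0.05 in a genotype comparison. Col1a1, one of the chains of type I, the main fibril of connective tissue, read 10.34 and 11.05 in WT vehicle, 10.97 and 11.04 in WT rosiglitazone, 11.07 and 10.91 in Fgf21-KO vehicle and 11.20 and 11.05 in Fgf21-KO rosiglitazone. A single pool, WT vehicle 1, was low, and the other 7 spanned 10.91 to 11.20. Its averaged genotype difference was 0.20, with a 95% interval of -0.19 to 0.60. Col1a2, the partner chain, read 6.07 and 5.52, 6.24 and 5.99, 6.23 and 5.72, and 6.36 and 6.41 in the same order of groups and was not detected on 2 WT vehicle arrays. Both rosiglitazone groups had the higher mean, with a difference of 0.36 averaged over genotypes (SE 0.17, adjusted p = 0.613). The pools overlapped in WT but not in the knockout.

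Col3a1, the type III chain of loose connective tissue and vessel walls, read 9.26 and 9.39 in WT vehicle, 9.80 and 9.35 in WT rosiglitazone, 9.60 and 9.43 in Fgf21-KO vehicle and 9.58 and 9.44 in Fgf21-KO rosiglitazone. Its rosiglitazone difference in WT, 0.24 (SE 0.18, adjusted p = 0.633), came from WT rosiglitazone pool 1, without which it was 0.02. Col5a1, a type V chain that sets fibril diameter, read 12.83 and 13.05, 12.61 and 12.77, 12.82 and 12.61, and 12.48 and 12.38. It was the one fibrillar gene with lower values in both comparisons: both rosiglitazone pools lay below both vehicle pools in each genotype, by -0.26 in WT (SE 0.15, adjusted p = 0.587) and -0.29 in the knockout (SE 0.15, adjusted p = 0.952), and the averaged genotype difference was -0.24 (adjusted p = 0.377). Averaged over genotypes the rosiglitazone difference was -0.27 (adjusted p = 0.554).

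Col5a3, another type V chain and one known from mouse fat, ran the other way. It read 8.59 and 8.82 in WT vehicle, 8.46 and 8.95 in WT rosiglitazone, 8.87 and 8.73 in Fgf21-KO vehicle and 9.10 and 9.19 in Fgf21-KO rosiglitazone. The Fgf21-KO rosiglitazone pools were the 2 highest of the 8, with a difference of 0.34 from Fgf21-KO vehicle (SE 0.19, adjusted p = 0.958) and of 0.44 from WT rosiglitazone (SE 0.19, adjusted p = 0.326). Without WT rosiglitazone pool 1, the lower of the WT pair, the latter was 0.20. Col2a1, the cartilage collagen, was detected on 6 of 16 arrays and read 5.68 and 5.50, 5.48 and 5.46, 5.76 and 5.67, and 5.65 and 5.20, a range close to the detection limit.

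Averaged over treatments, 2 of the 6 type IV genes had higher and 4 lower values in the knockout. The neighbours Col4a4 and Col4a3, which passed the detection rule only through WT, were both lower, at -0.61 and -0.19. Without WT rosiglitazone pool 1 the Col4a3 difference was -0.32. Col4a1 and Col4a2 encode the chains of the common basement membrane network. Col4a1 read 14.39 and 14.31 in WT vehicle, 14.20 and 14.34 in WT rosiglitazone, 14.61 and 14.21 in Fgf21-KO vehicle and 14.22 and 14.06 in Fgf21-KO rosiglitazone, with overlap in every comparison and an averaged genotype difference of -0.04, or -0.07 without WT rosiglitazone pool 1. Col4a2 read 13.36 and 13.56, 13.53 and 13.60, 14.07 and 13.76, and 13.79 and 13.62. All knockout pools of Col4a2 lay above all WT pools, though the closest pair, 13.60 and 13.62, differed by less than the spread within any group. The difference was 0.46 under vehicle (SE 0.16, adjusted p = 0.98) and 0.14 under rosiglitazone. Those overlapping neighbours therefore had averaged genotype differences of -0.04 and 0.30, and the difference between the genes was not tested.

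Col4a4 and Col4a6 were lower in the knockout. Both are minor chains, best known from the basement membranes of kidney and of other epithelia and smooth muscle. Col4a4 read 5.93 and 6.21 in WT vehicle, 5.98 and 6.29 in WT rosiglitazone, 5.74 and 5.37 in Fgf21-KO vehicle and 5.42 and 5.46 in Fgf21-KO rosiglitazone. It was detected on all 8 WT arrays but on 1 and 0 arrays of the knockout groups, so it was tested by virtue of the genotype in which it was higher, and its averaged difference of -0.61 (SE 0.14, adjusted p = 0.154) is a description only. Col4a6, detected on all 16 arrays, read 6.34 and 6.88, 6.81 and 6.79, 6.30 and 6.19, and 6.11 and 6.21. Its averaged difference was -0.50 (SE 0.14, adjusted p = 0.21), but a second, dimmer tested probe of Col4a6, detected on 4 arrays, gave 0.20 (SE 0.13).

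Col4a5, the X-linked neighbour of Col4a6, read 7.35 and 8.55 in WT vehicle, 5.94 and 8.17 in WT rosiglitazone, 8.21 and 7.77 in Fgf21-KO vehicle and 8.27 and 7.95 in Fgf21-KO rosiglitazone. The low value was WT rosiglitazone pool 1, and the SE of 0.72 exceeded most differences of the other genes. Col4a3, partner of Col4a4 in the kidney filter, was detected on 5 arrays and read 5.32 and 5.96, 5.24 and 5.76, 5.68 and 5.07, and 5.32 and 5.45, with overlap throughout. Those arrays were 2 of each WT group and 1 of Fgf21-KO vehicle, so it too was tested by virtue of WT.

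The multiplexins went in opposite directions between genotypes. Col18a1 read 13.14 and 13.07 in WT vehicle, 13.12 and 13.00 in WT rosiglitazone, 12.91 and 12.88 in Fgf21-KO vehicle and 12.48 and 12.41 in Fgf21-KO rosiglitazone. All knockout pools lay below all WT pools, and within the knockout the rosiglitazone pools lay below the vehicle pools. Rosiglitazone gave -0.45 in the knockout (SE 0.13, unadjusted p = 0.00977, adjusted p = 0.811) and -0.04 in WT, or -0.105 without WT rosiglitazone pool 1, and the interaction, the difference of these responses, was -0.40 (SE 0.18, adjusted p = 0.827). The genotype difference was -0.61 under rosiglitazone (SE 0.13, adjusted p = 0.152, the lowest collagen value in that comparison) and -0.21 under vehicle. Col15a1, abundant in the basement membrane zone of capillaries and muscle, read 11.70 and 11.80, 12.0004 and 11.88, 12.19 and 11.96, and 12.18 and 12.22. Its averaged genotype difference was 0.30 (SE 0.10, adjusted p = 0.274), with WT rosiglitazone pool 1 above the lowest knockout pool, and its rosiglitazone difference in WT was 0.19 (adjusted p = 0.623).

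Of the fibril-associated genes, Col16a1 had the lowest p in each genotype comparison. It codes for a minor collagen that attaches to fibrils and to the cell surface, and read 11.13 and 11.02 in WT vehicle, 11.11 and 11.16 in WT rosiglitazone, 10.95 and 10.38 in Fgf21-KO vehicle and 10.35 and 10.15 in Fgf21-KO rosiglitazone. The WT pools spanned 0.14 and lay above all knockout pools. The difference was -0.41 under vehicle (SE 0.20, adjusted p = 1) and -0.88 under rosiglitazone (SE 0.20, adjusted p = 0.172), and rosiglitazone gave -0.41 in the knockout (adjusted p = 0.932) and 0.06 in WT. Its interaction was -0.47 (SE 0.29, adjusted p = 0.827). The lower Fgf21-KO vehicle pool, 10.38, lay near the higher Fgf21-KO rosiglitazone pool, 10.35. Under the alternative settings the rosiglitazone difference in the knockout ran from -0.70 to -0.13 and the interaction from -0.75 to -0.18. Col14a1, which coats fibrils, ranged from 6.28 in WT rosiglitazone pool 1 to 7.60 in Fgf21-KO rosiglitazone pool 2, with overlap in every comparison.

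Among the transmembrane collagens, Col23a1 had the largest averaged genotype difference of the tested members, with and without WT rosiglitazone pool 1. It read 7.26 and 7.23 in WT vehicle, 8.44 and 7.35 in WT rosiglitazone, 6.78 and 6.33 in Fgf21-KO vehicle and 6.71 and 6.28 in Fgf21-KO rosiglitazone. All knockout pools were lower. The averaged difference was -1.05 (SE 0.26, adjusted p = 0.177), and the difference under rosiglitazone was -1.40 with and -0.85 without that pool. Under vehicle Col6a2 exceeded it in size, as did Col16a1 under rosiglitazone without that pool, at -0.91. Its rosiglitazone difference in WT, 0.64, was 0.10 without that pool, in which epithelial and smooth muscle markers were also highest. The interaction was likewise -0.70 with it and -0.16 without it. Col17a1 of epithelial attachment sites and Col25a1 were each detected on 4 arrays and stayed between 5.02 and 5.90. The untested Col7a1, the anchoring fibril collagen of squamous epithelium, was detected on 2 arrays, both of WT rosiglitazone pool 1, at 7.25 against 4.88 to 5.48 in the other pools.

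**Figure D3:**
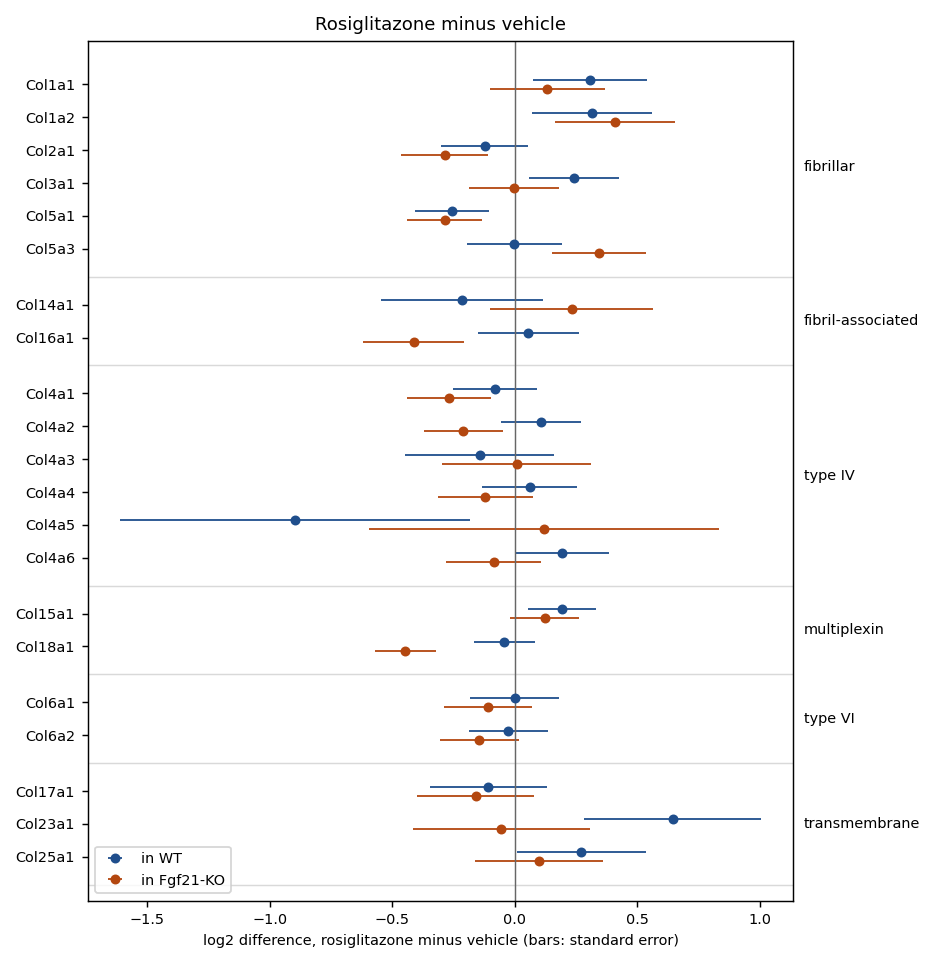
Log2 difference, rosiglitazone minus vehicle (horizontal axis), for the 21 tested collagen genes by class, in WT (blue) and Fgf21-KO (orange), with the standard error as bars. Points lie on both sides of 0 in every class but type VI, and Col4a5 and Col23a1 have the widest bars.

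Setting the classes side by side, the median genotype difference averaged over treatments was 0.53 for the 2 type VI genes, 0.13 for the 6 fibrillar genes and -0.11 for the 6 type IV genes, against -0.02 over all 9542 genes. The type IV medians for genotype include Col4a4 and Col4a3, which passed the detection rule only through WT, so their sign is a description. Of the other type IV genes, Col4a2 and Col4a5 had higher and Col4a1 and Col4a6 lower averaged values in the knockout. Col4a5, at 0.55, was -0.01 without WT rosiglitazone pool 1. Under vehicle the medians were 0.58, 0.15 and -0.12, and under rosiglitazone they were 0.47, 0.04 and -0.12. The type IV median under vehicle was -0.58 without WT vehicle pool 1 and 0.15 without Fgf21-KO vehicle pool 2, and the fibrillar one was 0.0523 without WT vehicle pool 1 and 0.0484 without Fgf21-KO vehicle pool 1. Under rosiglitazone the fibrillar median was 0.19 without Fgf21-KO rosiglitazone pool 2. Scaling arrays to a common median turned it to -0.0815 and lowered the type VI median to 0.26. The median of all genes in that comparison moved as well, from -0.05 to -0.22, and both class medians stayed above it. The class median in each pool, centred on the gene's mean, was -0.41 to -0.13 in WT and 0.12 to 0.46 in the knockout for type VI. For the fibrillar genes those ranges were -0.11 to -0.01 and -0.07 to 0.17, and for type IV -0.14 to 0.42 and -0.17 to 0.26, so the genotypes overlapped in both. Rosiglitazone gave medians of 0.12 (fibrillar), -0.01 (type IV) and -0.01 (type VI) in WT and of 0.06, -0.10 and -0.13 in the knockout, where the all-gene medians were 0.03 and -0.00. Within groups the pool medians had an SD of 0.09 for fibrillar, 0.29 for type IV and 0.16 for type VI. The fibrillar median for rosiglitazone in WT turned to -0.0391 without WT vehicle pool 1 and to -0.0614 with the mean of a gene's tested probes. Type VI here means Col6a1 and Col6a2 only.

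Counts over the tested members were read against all genes. For rosiglitazone, limma called 0 collagens in WT and 0 in the knockout, where 0% of 13759 probes were called in either, and 0 and 1 collagens (Col18a1) had an unadjusted p under 0.05, against 7.66% and 5.71% of all genes. Averaged over genotypes it was 2 of 21 (Col18a1 and Col5a1, both lower with rosiglitazone) against 8.58%, with 0% of probes called, and Col1a2 and Col2a1 (-0.20, adjusted p = 0.674) came next. For the interaction it was 0 of 21 against 4.79%, again with 0% of probes called, and the lowest p-values were those of Col18a1, Col16a1, Col4a2 (-0.32, adjusted p = 0.827) and Col23a1. In WT the lowest p-values were those of Col23a1, Col5a1, Col15a1 and Col3a1, and in the knockout those of Col18a1, Col16a1, Col5a1 and Col5a3. The lowest adjusted p among collagens was 0.587 and 0.811. Without WT rosiglitazone pool 2, which leaves pool 1 to stand for that group, limma called 2702 probes and 2 collagens for rosiglitazone in WT.

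For genotype the counts were higher. Under vehicle 4 collagens had an unadjusted p under 0.05, Col6a2, Col4a2 and Col6a1 with higher and Col4a4 with lower values in the knockout, against 4.66% of all genes, and 0% of probes were called. That number was 2 without either Fgf21-KO rosiglitazone pool, 6 without either WT rosiglitazone pool, and 3, of which 1 was higher, without WT vehicle pool 1 or Fgf21-KO vehicle pool 1. Under rosiglitazone there were 6, 1 higher and 5 lower, against 15.8% of genes and 0% of probes called, and the 4 of lowest p were Col18a1, Col16a1, Col23a1 and Col6a2. Averaged over treatments 9 of 21 had such a p, 4 higher and 5 lower, against 14.5% of genes. Without WT vehicle pool 1 there were 6, 1 higher and 5 lower, against 9.36% of genes, and without Fgf21-KO vehicle pool 1 the same numbers stood against 9.57%. The knockout pools lay wholly outside the WT range for 8, 3 above and 5 below, against 10.4% of genes. Of the 14 members detected on every array, which leaves out Col4a4, the numbers were 8 and 7, against 14% and 11.7% of genes detected on every array. By the adjusted p that comparison called 3 probes, 0.0218% of those tested, and none was a collagen. Without WT rosiglitazone pool 1 the unadjusted counts were 6 of 21 under rosiglitazone and 9 of 21 averaged, against 14.6% and 18.1% of genes. Without WT rosiglitazone pool 2, limma called 6 and 8 collagens, among 3391 and 2755 probes called. When arrays were scaled to a common median in place of quantile normalization, the median of all genes moved to -0.22 under rosiglitazone and -0.14 averaged. The collagens with an unadjusted p under 0.05 then split into 0 higher and 6 lower under rosiglitazone and 1 higher and 6 lower averaged, and among all such genes in the averaged comparison 11.8% were higher, against 39% with quantile normalization. Col6a2 still lay above those medians, with differences of 0.35 under rosiglitazone and 0.49 averaged. The genotype comparisons share pools with each other and with the rosiglitazone comparisons, so their counts are not independent.

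Genes that make, process or bind collagen gave no call either in the fit with all pools. Those named from each list are the 2 of lowest p over the group comparisons, so their separation by genotype is a description. For 10.4% of all genes the knockout pools lay wholly outside the WT range. Of 15 tested hydroxylation and folding genes, 10 had higher and 5 lower values in the knockout under vehicle, and 6 and 9 under rosiglitazone, with 1 and 3 at an unadjusted p under 0.05. P4ha2, a catalytic subunit of the prolyl hydroxylase that stabilises the helix, read 8.55 to 8.68 in WT and 8.14 to 8.41 in the knockout (difference under rosiglitazone -0.42, SE 0.13, adjusted p = 0.242). P4hb, the partner subunit, read 13.76 to 13.99 and 13.40 to 13.66 (-0.45, SE 0.14, adjusted p = 0.242). For both genes the genotypes did not overlap. Among 4 tested propeptide processing genes, Pcolce2, which enhances cleavage of the fibrillar propeptide, read 11.32 and 11.05 in WT vehicle, 9.90 and 10.97 in WT rosiglitazone, 12.29 and 11.97 in Fgf21-KO vehicle and 12.02 and 12.03 in Fgf21-KO rosiglitazone. Its difference under rosiglitazone was 1.59 (SE 0.34, adjusted p = 0.157), or 1.05 without WT rosiglitazone pool 1, and all knockout pools were higher. Averaged over treatments the Pcolce2 difference was 1.27, or 1.00 without that pool. Bmp1, the propeptide protease itself, read 10.77 to 11.03 in both WT groups and Fgf21-KO vehicle and 10.41 and 10.23 in Fgf21-KO rosiglitazone (genotype difference under rosiglitazone -0.60, SE 0.16, adjusted p = 0.207).

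Crosslinking enzymes were few. Of 3 tested, Loxl2 was 7.16 to 7.63 in WT and 7.72 to 7.84 in the knockout, and Loxl1 was 12.73 to 12.81 and 12.41 to 12.68 (differences under rosiglitazone 0.45, adjusted p = 0.261, and -0.30, adjusted p = 0.337). These lysyl oxidase relatives, named for their low p, thus differed in opposite directions. Among 10 tested matrix proteins that bind collagen, Thbs2, a thrombospondin that affects fibril assembly, read 12.83 and 12.76 in WT vehicle, 12.02 and 12.60 in WT rosiglitazone, 11.21 and 12.03 in Fgf21-KO vehicle and 10.72 and 10.46 in Fgf21-KO rosiglitazone. It had the lowest p of the 6 lists, with a genotype difference of -1.72 under rosiglitazone (SE 0.31, adjusted p = 0.13) and -1.17 under vehicle (adjusted p = 0.755). Averaged over treatments the Thbs2 difference was -1.45, or -1.59 without WT rosiglitazone pool 1. Sparc, a matrix protein that binds type I and IV collagen, read 14.95 to 15.17 in WT and 15.37 to 15.49 in the knockout (0.38 under rosiglitazone, SE 0.14, adjusted p = 0.283).

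Of 8 tested collagen receptors, Itga1, the chain of the integrin that binds type IV collagen, read 8.19 and 8.37 in WT vehicle, 7.58 and 7.87 in WT rosiglitazone, 8.22 and 8.31 in Fgf21-KO vehicle and 8.13 and 8.27 in Fgf21-KO rosiglitazone. Rosiglitazone gave -0.55 in WT (SE 0.16, adjusted p = 0.541). Cspg4, a pericyte proteoglycan that binds type VI collagen, read 7.74 to 8.07 in WT and 8.07 to 8.35 in the knockout (0.45 under rosiglitazone, SE 0.15, adjusted p = 0.269). Among 10 tested genes of TGF beta signalling and fibrosis, Smad3, a transducer of the signal, read 7.98 and 7.50 in WT vehicle against 8.02 to 8.30 in the other 6 pools (genotype difference under vehicle 0.48, SE 0.18, adjusted p = 1). Pdgfra, a receptor of fibroblasts and their progenitors, read 10.72 to 10.85 in WT and 10.45 to 10.63 in the knockout (-0.29 under rosiglitazone, SE 0.12, adjusted p = 0.318). Across these 6 lists the count at an unadjusted p under 0.05 for genotype under rosiglitazone was 3 of 15, 2 of 4, 1 of 3, 2 of 10, 2 of 8 and 0 of 10, beside the 15.8% of all genes.

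Probes of the same gene disagreed for Col3a1 and Col6a1 in a single pool, and for Col18a1 and Col4a6 beyond it. Col3a1 had a second tested probe that read 7.25 and 7.49 in WT vehicle, 5.75 and 7.51 in WT rosiglitazone, 7.95 and 7.73 in Fgf21-KO vehicle and 7.64 and 7.76 in Fgf21-KO rosiglitazone. In WT rosiglitazone pool 1 it was the lowest of all pools while the brightest Col3a1 probe was the highest, so that the difference for rosiglitazone in WT was -0.74 (SE 0.50) by the second probe and 0.24 by the first. The averaged genotype difference of Col3a1 was 0.77 (SE 0.36) by the second probe. By the first it was 0.06, or 0.18 without that pool. The third Col6a1 probe was also lowest in that pool, at 6.13 against 7.52 to 8.53. The averaged genotype difference of Col6a1 was 0.40, 0.33 and 0.90 by its 3 probes. For Col18a1 the second probe gave -0.41 for rosiglitazone in the knockout (SE 0.13), close to the -0.45 of the first, but 0.07 for genotype under vehicle against -0.21. For Col4a6 the genotype difference under rosiglitazone was 0.28 by the second probe and -0.64 by the first.

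**Figure D4:**
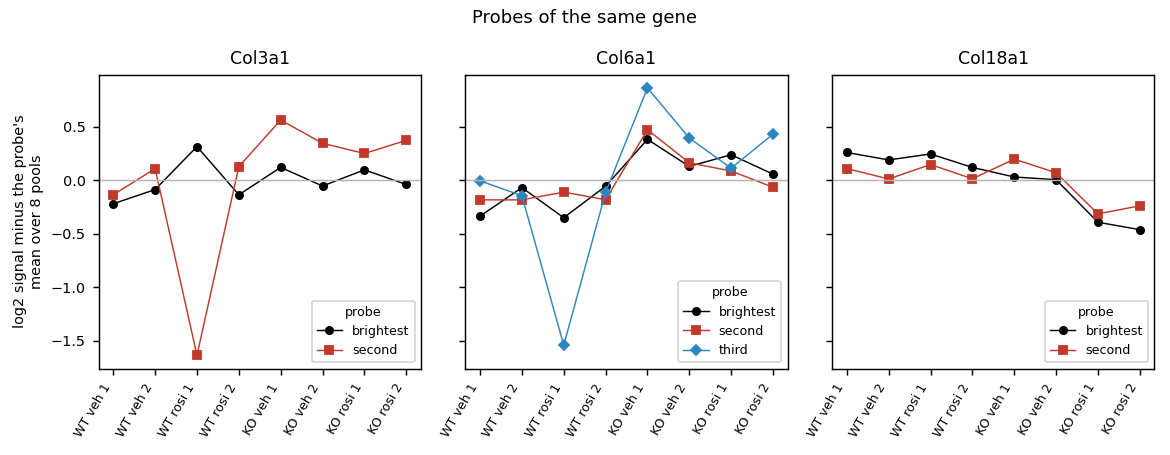
Log2 signal minus the probe's mean over 8 pools (vertical axis) for each tested probe of Col3a1, Col6a1 and Col18a1 in the 8 pools (horizontal axis). The second Col3a1 probe and the third Col6a1 probe drop in WT rosiglitazone pool 1, where the brightest Col3a1 probe is highest.

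The authors' deposited table gives ratios of group means over all 4 arrays of a group, on signals without normalization. How its p-values were obtained was not examined here. It holds 7 collagen probes of 6 genes. For knockout over WT under vehicle it calls Col6a2 at a ratio of 1.375 and, below 1, Col16a1 at 0.652, Col23a1 at 0.663 and Col5a1 at 0.735. For rosiglitazone in the knockout the authors' deposited table calls Col16a1 at 0.737 and Col18a1 at 0.72, and it calls no collagen for rosiglitazone in WT. Of its 829 calls for genotype, 748 are below 1, and the median ratio of the non-normalized group means over all probes was 0.828. In the deposited normalized values the same genotype ratios were 1.62 for Col6a2, 0.772 for Col16a1, 0.792 for Col23a1 and 0.857 for Col5a1. The directions for these 4 genes were the same with and without normalization, and the sizes were not. Among the rows not called for genotype, Col4a1 turned from 0.899 to 1.048 and the second Col18a1 probe from 0.869 to 1.036. The brightest Col18a1 probe stayed below 1, at 0.741 and 0.868.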

How the data were processed

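Expression was measured in epididymal white fat on 16 single-colour Illumina MouseRef-8 arrays, in 4 groups of 2 pools of 2 mice with 2 arrays per pool. RNA was extracted with Trizol and RNeasy and labelled with the MessageAmp kit, per the labels' protocols. Per the file headers, 1 deposited table holds non-normalized mean bead intensities with a detection p-value and a bead number for each probe. A second holds the authors' normalized linear intensities, and the authors' deposited statistics table holds ratios of group means with p-values. Probes were named through the platform annotation, and the genome build used by the authors is not given in the sources used here. Of the per-array columns, 64 were not used.

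All main values were computed in R 4.3.3 with limma 3.58.1 from the non-normalized signals: normexp background correction by detection p-values (nec, offset 16), quantile normalization, log2, and the mean of each pool's arrays. Of 25697 probes, 13759 were kept (a detection p no higher than 0.05 on 4 or more arrays). One model with 4 group means (lmFit, eBayes; 4 residual and 2.75 prior degrees of freedom) gave 7 two-sided comparisons, with Benjamini-Hochberg adjustment over all 13759 probes and a threshold of 0.05. Nothing in the labels says more of the pools than that they are biological replicates, so p-values measure the spread between them. Precision is limited by the 2 pools per group.

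All 37 collagen genes matched the RefSeq annotation by Entrez gene ID. A gene stood in by its brightest probe, and disagreements between probes are given. Members and lists (8 collagen classes, 6 further lists, 8 marker lists) were chosen with earlier results of these data known. Named were every tested gene of the 4 main classes, the 4 collagens of lowest p in each comparison, the 2 genes of lowest p in each further list, and Fgf21. Same-numbered pools did not deviate together, with correlations from -0.10 to 0.27 over probes, so pools were not paired. The fit was tested on simulated data. Alternatives changed the background correction, scaling, probe filter, handling of repeat arrays, eBayes settings, weights, probe choice and pools.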

Additional observations from a re-analysis of the deposited data

How the results depend on the processing

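With 2 pools per group, small differences on the log2 scale lie within the SE of most collagens, and probes near the detection limit carry less. In the main setting limma called 0 probes in every comparison but genotype averaged (3), and 0 collagens. Probes called for rosiglitazone in WT, genotype under vehicle, genotype under rosiglitazone and genotype averaged numbered 1, 2, 5 and 13 with an offset of 50, 2, 3, 1 and 6 both without background correction and in the authors' normalized table, 1, 2, 1 and 9 among probes detected on all arrays, and 2, 3, 13 and 39 with trend and robust eBayes, which also called 1 collagen for genotype averaged, Col6a2 (adjusted p = 0.0439). Median scaling called 1 probe for rosiglitazone in WT, 57 for genotype under rosiglitazone and 26 for genotype averaged. No probe filter gave 5 for genotype averaged, only the groups compared gave 2 for genotype under rosiglitazone, and pool weights gave 9 for genotype under vehicle and 1 for genotype averaged. Keeping single arrays with the pool as a random block called 61 probes for rosiglitazone in WT, 13 in the knockout, 41 and 666 for genotype under vehicle and rosiglitazone, 22 for the interaction, and 20 and 535 for rosiglitazone and genotype averaged. It called 4 collagens for genotype under rosiglitazone (Col18a1, Col16a1, Col23a1 and Col6a2) and 6 for genotype averaged. These stand beside the 666 and 535 of 13759 probes called there, in a setting where each pool enters by its 2 repeat arrays. The replicate block called 0 probes for genotype averaged, gave 1 collagen with an unadjusted p under 0.05 for rosiglitazone in WT and changed no call of a collagen. Collagens with an unadjusted p under 0.05 numbered 1 for the interaction with an offset of 50, no background correction, the authors' normalized table, detection on all arrays, the random block and trend and robust eBayes. Median scaling gave 2 for genotype under vehicle and 1 for rosiglitazone averaged. No probe filter gave 3 for rosiglitazone in WT, 3 for the interaction and 5 for rosiglitazone averaged. The random block gave 1 and 2 for rosiglitazone in WT and the knockout and 10 for genotype under rosiglitazone, only the groups compared gave 2 in the knockout, and pool weights gave 2 in the knockout and 1 averaged. Fibrillar medians moved under median scaling to -0.0409 for rosiglitazone in the knockout, -0.0815 for genotype under rosiglitazone and 0.0324 for genotype averaged, and the type VI median for genotype under rosiglitazone to 0.26. The medians of all genes in those 3 comparisons were then -0.09, -0.22 and -0.14. Without a probe filter the fibrillar median was -8e-04 for rosiglitazone in WT and 0.0921 for the interaction. With the mean of a gene's tested probes it was -0.0614 for rosiglitazone in WT, 0.19 for genotype under rosiglitazone, 0.0313 for the interaction and 0.0052 for rosiglitazone averaged, and Col3a1 for rosiglitazone in WT reversed to -0.25, since its second probe was low in WT rosiglitazone pool 1. Leaving out each pool in turn, with the lone pool of a group assumed to vary like the others, gave 0 to 2702 probes for rosiglitazone in WT, 0 to 3391 for genotype under rosiglitazone, 0 to 2755 for genotype averaged, 0 to 1702 for the interaction and 0 to 1836 for rosiglitazone averaged, with 0 to 2, 0 to 6 and 0 to 8 collagens called in the first 3. Collagens with an unadjusted p under 0.05 ran from 0 to 4 for rosiglitazone in WT, 0 to 3 in the knockout, 0 to 4 averaged, 2 to 6 for genotype under vehicle, 4 to 10 under rosiglitazone, 6 to 12 averaged and 0 to 6 for the interaction. The type IV median for genotype under vehicle ran from -0.58 to 0.15. Fibrillar medians ran from 0.0484 to 0.22 for genotype under vehicle, -0.0425 to 0.19 under rosiglitazone, -0.18 to 0.0414 for the interaction and -0.0391 to 0.12 for rosiglitazone in WT. The most probes and collagens were called without WT rosiglitazone pool 2. Causes of the other changes were not tested. Of the 4 collagens named in each comparison, 527 values under the alternatives kept the direction and side of the threshold, 16 gained a call and 1 reversed. One setting, class medians over members detected on all arrays, was added after the values were seen.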
